A study of Homo sapiens with 6 samples.

Results

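The genes described here are a set of p53 target genes built around TP53INP1, taken as the rows of the deposited count table whose symbol is TP53INP1, MDM2, BBC3, BAX, SESN1, SESN2, GDF15, BTG2, ZMAT3 or RRM2B. Of these 10 genes, 9 were measured among the 12396 named genes of the table, and BTG2 was not analysed here. The table comes from RNA-seq of JHH-4, an epithelial-like human hepatocellular carcinoma line. It holds 3 control libraries, whose genotype is labelled WT, and 3 libraries labelled as having hsa-miR-372-3p overexpressed, by means of a plasmid that codes for its primary transcript. The replicates of each group are described as technical, so every p-value reflects library-to-library spread alone. The labels do not say what the control cells received.

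The transcription factor p53 is held at a low level by the ubiquitin ligase MDM2, itself a p53 target, and accumulates when DNA damage or other stress interrupts that loop. It then switches on genes that arrest the cell cycle, start apoptosis at mitochondria, repair DNA, restrain growth signalling and feed back on p53. Several of these genes also answer to other factors: GDF15 and SESN2 are induced by ATF4 in the integrated stress response. MicroRNAs act by another route, pairing through their seed with short matches in the 3′ UTR of a messenger, which is then degraded or translated less.

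The overexpressed microRNA and a pair of its relatives are shown because the seed, bases 2 to 8 in capitals, sets which sites could pair. In the RefSeq table (GRCh38.p14), 12 mature microRNAs carried this seed, among them the following.
hsa-miR-372-3p: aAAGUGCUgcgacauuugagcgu
hsa-miR-373-3p: gAAGUGCUucgauuuuggggugu
hsa-miR-302a-3p: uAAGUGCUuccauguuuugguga

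In the longest annotated 3′ UTR of each gene (GENCODE 29, GRCh38), the match to the whole seed, AGCACTT, was present in 4 of the 9 genes: MDM2, SESN2, ZMAT3 and TP53INP1. BBC3, BAX, SESN1, GDF15 and RRM2B held not even the 6-base match GCACTT. Lengths differed: 10837 nt in MDM2, 7794 in ZMAT3, 4773 in TP53INP1 and 1689 in SESN2, but 241 (GDF15) to 3631 nt (RRM2B) in those without it. The part of length in these counts was not tested. MDM2 held 3 of these matches. The MDM2 sites printed below begin 5503 and 7027 nt into its longest 3′ UTR, and whether these cells use that form was not tested. Its other match, at 10186 nt, and the match of ZMAT3 are not printed. Windows over a splice junction, or with a run of bases found in many 3′ UTRs, were left out. Of 12192 genes searched, 25.5% held AGCACTT, with or without a following A. None of the 9 genes held the 8-base form AGCACTTA, which 4.05% of all genes did. The site of SESN2, which did not pass the test, is printed with 2 sites of MDM2, which rose, each with its flanks in the direction of the transcript and the match in capitals.
MDM2, chr12:68845341-68845370, plus strand: ctgaaagcaccAGCACTTggaaggtgttca
MDM2, chr12:68846865-68846894, plus strand: ggcaggtagtaAGCACTTttaatgaatgga
SESN2, chr1:28281011-28281040, plus strand: ggagctggaagAGCACTTggagatcctaag

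Promoter windows of 8 of the 10 genes were searched for a p53 element, and MDM2 had one; TP53INP1 and RRM2B were not searched. RefSeq promoter windows of 300 bases (250 before and 50 after each annotated start, GRCh38.p14) were scanned for 2 p53 consensus half-sites side by side with up to 2 mismatches over 20 bases; the half-site is its own reverse complement, so both strands were covered. MDM2 had a match in 2 of its 4 windows, which overlap and hold the same element, and the windows of BBC3, BAX, SESN1, SESN2, GDF15, ZMAT3 and BTG2 had none. Over all promoters scanned, 0.82% of 27305 genes and 0.649% of 35116 windows had one. An element outside these windows, with bases between its half-sites or with more mismatches would be missed, so a gene without a match may still have one. The MDM2 element begins 94 bases before a start site of the internal promoter, the promoter through which p53 is known to act on this gene. It is shown in capitals, plus strand.
MDM2, chr12:68808903-68808962: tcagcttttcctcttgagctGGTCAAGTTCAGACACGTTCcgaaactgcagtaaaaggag

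In overexpressing cells TP53INP1 rose about 4-fold, and MDM2, BBC3, GDF15 and ZMAT3 rose 1.45 to 1.64-fold. BAX, SESN1, SESN2 and RRM2B did not pass the test, and no gene of the set fell. So 5 of the 9 passed, with edgeR's quasi-likelihood test adjusted over all genes, which is 55.6% against 54.5% of all 12396 genes: passing was as common elsewhere. By direction, 5 of 9 rose, where 26.8% of all genes rose and 27.7% fell. The median log2 fold change was 0.54 over the 9 genes and 0.0013 over all genes. In 6 of the 9 the normalised counts of the groups did not overlap, against 62.2% of all genes. The genes were named for this report with earlier results of these data known, so these counts describe the set and do not set it apart.

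**Figure D1:**
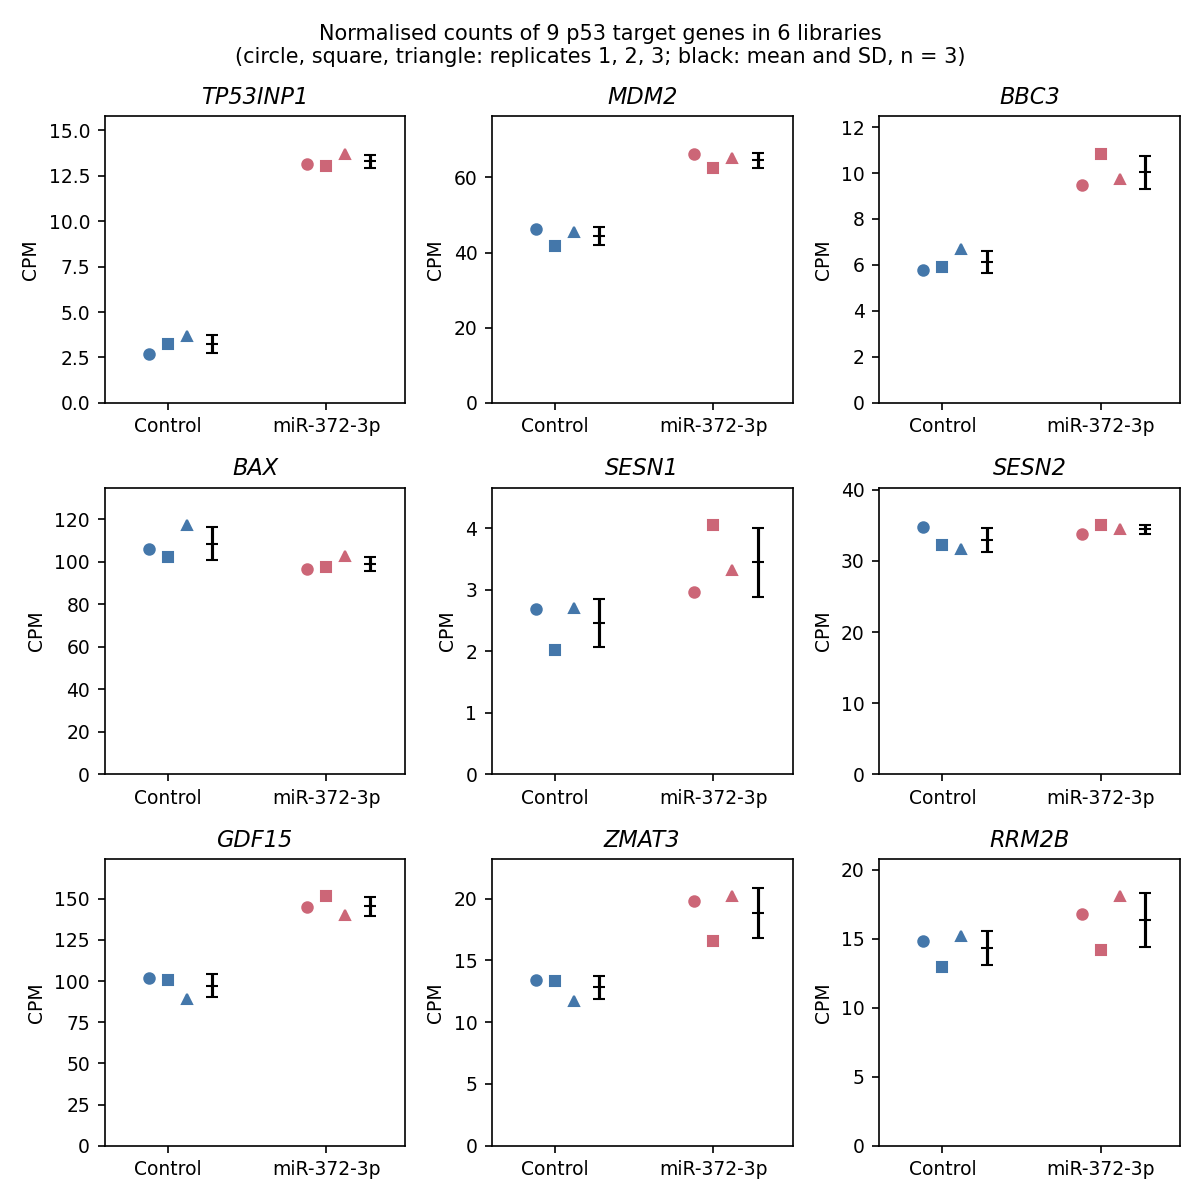
Normalised counts (CPM, each y axis starting at 0) of the 9 genes in control and miR-372-3p libraries; symbols are replicates 1 to 3, and black marks are the mean and SD (n = 3). TP53INP1 goes from at most 3.69 CPM in the controls to at least 13.0 in overexpressing cells, while BAX, SESN2 and RRM2B overlap between groups.

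TP53INP1 encodes a stress-induced protein that assists p53 in nuclear bodies and takes part in autophagy through binding of LC3-family proteins. The gene (ENSG00000164938) lies on the minus strand of chromosome 8 (94925972 to 94949411, GRCh38). Control replicates 1 to 3 had 127, 152 and 179 reads, while the overexpressing libraries, in the same order, had 789, 658 and 769. Scaled to CPM, a read count divided by the normalised library size, the controls stood at 2.70, 3.26 and 3.69 and the overexpressing cells at 13.2, 13.0 and 13.7. All 3 overexpression libraries lay close together and far above every control, and the controls spread more (coefficient of variation 15.3% against 2.81%). This was a log2 fold change of 2.05 ± 0.12 (SE; 95% confidence interval 1.77 to 2.32; edgeR adjusted p = 8.07e-07), a 4.13-fold rise that ranked 66 of 12396 among log2 fold changes. The interval lies above those of the other 8 genes, the highest of which ends at 0.95 (BBC3). NDUFAF6, a gene on the opposite strand that overlaps TP53INP1, shares 0 exonic bases with it and had a log2 fold change of 0.02 (edgeR adjusted p = 0.883). The AGCACTT match of TP53INP1, at chr8:94926107-94926113, lay 4632 nt into a 3′ UTR of 4773 nt, which held 2 further 6-base matches; with that match the gene rose, as did MDM2 and ZMAT3, while SESN2 did not pass.

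By a fixed rule, the 3 genes whose log2 CPM followed TP53INP1 most closely over the 6 libraries, from genes averaging 2 CPM or more, were STX16 (Pearson r = 0.9994), a vesicle fusion protein, REXO4 (0.9988) and RNF138 (0.9987), a ubiquitin ligase. In all, 242 of 11703 genes had an r above 0.99, and no other gene of the set did, the highest being BBC3 (0.980). These r values rest on 6 libraries that fall into 2 groups. STX16 rose 1.37-fold, REXO4 1.30-fold and RNF138 1.58-fold, each less than TP53INP1.

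MDM2, the ubiquitin ligase that marks p53 for degradation, was at 46.3, 41.7 and 45.4 CPM in control replicates 1 to 3 and 66.3, 62.4 and 65.1 in the overexpression libraries. The groups did not overlap, and replicate 2 was the lowest library of each. The rise was 1.45-fold, a log2 fold change of 0.54 ± 0.053 (SE; edgeR adjusted p = 2.25e-05). Its exons share 133 of 13284 bases (1.00%) with CPM, a carboxypeptidase gene on the opposite strand that fell (−0.43 ± 0.054, edgeR adjusted p = 0.000104). Larger overlaps are annotated with AC025423.4, an antisense gene (785 bases, 5.91%), and with the pseudogene AC025423.2 on the same strand (439 bases); neither was analysed here. The library kit does not mark strand, so reads of MDM2 and of these genes cannot be told apart where they overlap. MDM4, the MDM2 relative that blocks p53 activity, also rose, from 24.8 ± 0.361 to 33.2 ± 1.26 CPM (SD, n = 3), a log2 fold change of 0.42 ± 0.053 (edgeR adjusted p = 0.000121).

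The apoptosis genes of the set differed. BBC3 encodes PUMA, a BH3-only protein that neutralises anti-apoptotic BCL2 proteins. It was at 5.77, 5.90 and 6.67 CPM in the controls and 9.49, 10.8 and 9.76 in overexpressing cells. Every overexpression library was above every control, and the log2 fold change was 0.71 ± 0.106 (SE; edgeR adjusted p = 0.000343), or 1.64-fold. BAX, the pore-forming protein on which such signals converge at the mitochondrial outer membrane, was at 106, 103 and 117 CPM in the controls and 96.8, 97.6 and 103 in overexpressing cells. Control replicate 3 was the highest, and control replicate 2 lay just under overexpression replicate 3, so the groups overlapped. BAX had a log2 fold change of −0.13 with an interval of −0.26 to −0.01 and did not pass (edgeR adjusted p = 0.0619); without control replicate 2 it was −0.17 and passed (adjusted p = 0.0227), as it did in DESeq2 (adjusted p = 0.0442). Without control replicate 3 it was −0.08 (adjusted p = 0.148), and over all alternatives the adjusted p ran from 0.0227 to 0.176.

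Relatives of these apoptosis genes from a fixed list are given for comparison. The BH3-only genes HRK (1.22 ± 0.163, from 1.90 to 4.44 CPM), BCL2L11 (0.66 ± 0.069) and BMF (0.28 ± 0.053) rose, as did BAK1 (0.43 ± 0.075), a pore-forming partner of BAX, and BOK (0.40 ± 0.050). The log2 fold change of BID was −0.03 ± 0.051 and did not pass. Each is a log2 fold change with its standard error from the edgeR fit.

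**Figure D2:**
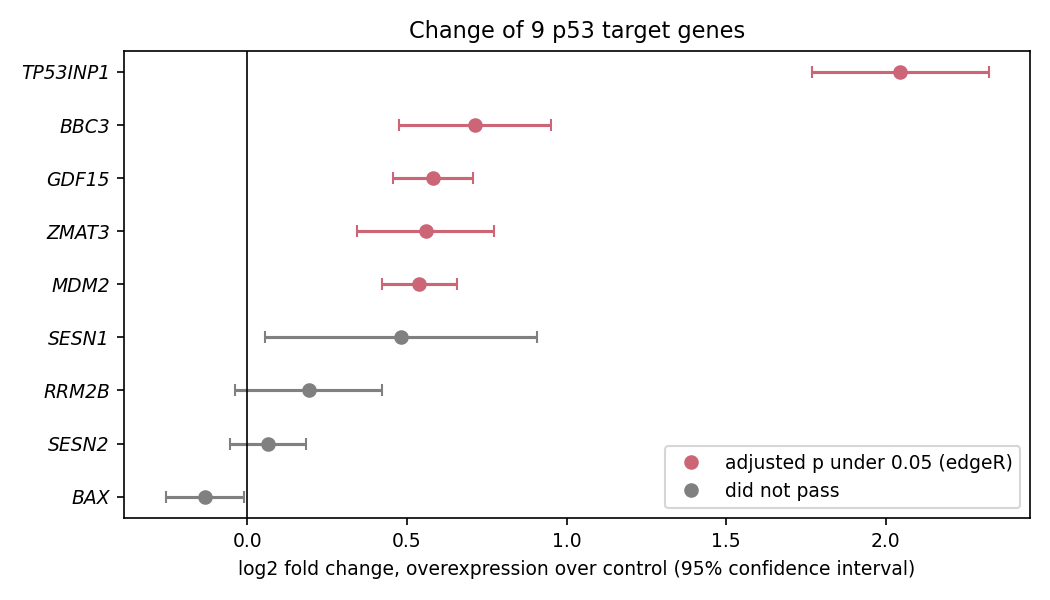
Log2 fold change of overexpression over control for the 9 genes, with 95% confidence intervals from edgeR (3 libraries a group); red genes passed an adjusted p of 0.05 and grey ones did not. TP53INP1, at 2.05, stands apart from 4 genes between 0.54 and 0.71, and BAX is the only estimate below 0.

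Sestrins are stress-induced proteins that restrain the growth kinase complex mTORC1. SESN1 was less abundant than SESN2, with 94 to 131 reads in the controls and 178 to 205 in overexpressing cells. Its values were 2.68, 2.02 and 2.70 CPM in the controls and 2.97, 4.06 and 3.32 in overexpressing cells. The groups did not overlap, but overexpression replicate 1 lay just above control replicates 1 and 3. The log2 fold change of 0.48 had an interval of 0.05 to 0.91 and did not pass after adjustment (edgeR adjusted p = 0.0554). It passed in DESeq2 (adjusted p = 0.0408), when only genes averaging 2 CPM or more were tested (0.0457) and without overexpression replicate 1 (0.0496). Over all alternatives its adjusted p ran from 0.0408 to 0.194, the highest without overexpression replicate 2. An antisense gene, AL390208.1, covers 363 of its exonic bases (7.09%), and was not analysed here. SESN2, a leucine-sensing member, was at 34.8, 32.2 and 31.7 CPM in the controls and 33.7, 35.0 and 34.5 in overexpressing cells. The ranges overlapped, and its log2 fold change of 0.07 (interval −0.05 to 0.18; edgeR adjusted p = 0.323) has an upper bound that corresponds to a 1.14-fold rise. The remaining family member, SESN3, fell from 4.15 ± 0.682 to 1.96 ± 0.259 CPM (SD, n = 3), a log2 fold change of −1.08 ± 0.187 (edgeR adjusted p = 0.000853).

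GDF15 is a secreted cytokine of the TGF-beta superfamily that signals to the brainstem and rises in many cells under stress. It was at 102, 100.4 and 89.2 CPM in the controls and 145, 151 and 140.1 in overexpressing cells. Control replicate 3 was the lowest library and no values overlapped. The mean rose from 97.2 ± 6.91 to 145 ± 5.67 CPM (SD, n = 3), a log2 fold change of 0.58 ± 0.056 (SE; edgeR adjusted p = 1.89e-05).

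ZMAT3 encodes a zinc-finger RNA-binding protein that regulates splicing and RNA stability. It was at 13.4, 13.3 and 11.7 CPM in the controls and 19.8, 16.6 and 20.2 in overexpressing cells. Overexpression replicate 2 was lower than the other 2 but still above every control, and the log2 fold change was 0.56 ± 0.096 (SE; edgeR adjusted p = 0.00082), or 1.47-fold. RRM2B, the p53-inducible small subunit of ribonucleotide reductase that supplies DNA precursors outside S phase, was at 14.9, 12.9 and 15.2 CPM in the controls and 16.8, 14.2 and 18.1 in overexpressing cells. Overexpression replicate 2 lay below 2 of the controls. The log2 fold change of 0.19 (interval −0.04 to 0.42) did not pass (edgeR adjusted p = 0.143); without overexpression replicate 2 it was 0.28 and passed (adjusted p = 0.0381), and without overexpression replicate 3 it was 0.11 (adjusted p = 0.427), the lowest and highest p of all alternatives. The S-phase subunit RRM2 fell from 347 ± 5.25 to 209 ± 2.35 CPM (SD, n = 3), a log2 fold change of −0.73 ± 0.033 (edgeR adjusted p = 1.49e-07), and the large subunit RRM1 fell by less (−0.18 ± 0.038, adjusted p = 0.00239). Whether RRM2B and RRM2 differ in their change was not tested.

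Levels can be compared between genes only per length, so the authors' deposited FPKM values are used for the order. In control cells BAX (91.8 ± 9.26 FPKM, SD, n = 3) and GDF15 (71.9 ± 4.44) were far above the rest. SESN2 followed at 8.46 ± 0.419, then MDM2 (3.25 ± 0.309), BBC3 (2.97 ± 0.249), RRM2B (2.62 ± 0.231), ZMAT3 (1.34 ± 0.0787), SESN1 (0.705 ± 0.177) and TP53INP1 (0.505 ± 0.0837). The control ranges of MDM2 and BBC3 overlapped, as did those of BBC3 and RRM2B and those of SESN1 and TP53INP1, so these neighbours cannot be ordered. In overexpressing cells GDF15 (108 ± 3.64) lay above BAX (84.8 ± 1.71) with no overlap, the reverse of their order in controls. TP53INP1, lowest by mean in controls, reached 2.10 ± 0.0672 FPKM, a range that overlapped with that of ZMAT3 (1.96 ± 0.186) and lay above that of SESN1 (0.937 ± 0.143). It stayed far below BAX and GDF15.

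**Figure D3:**
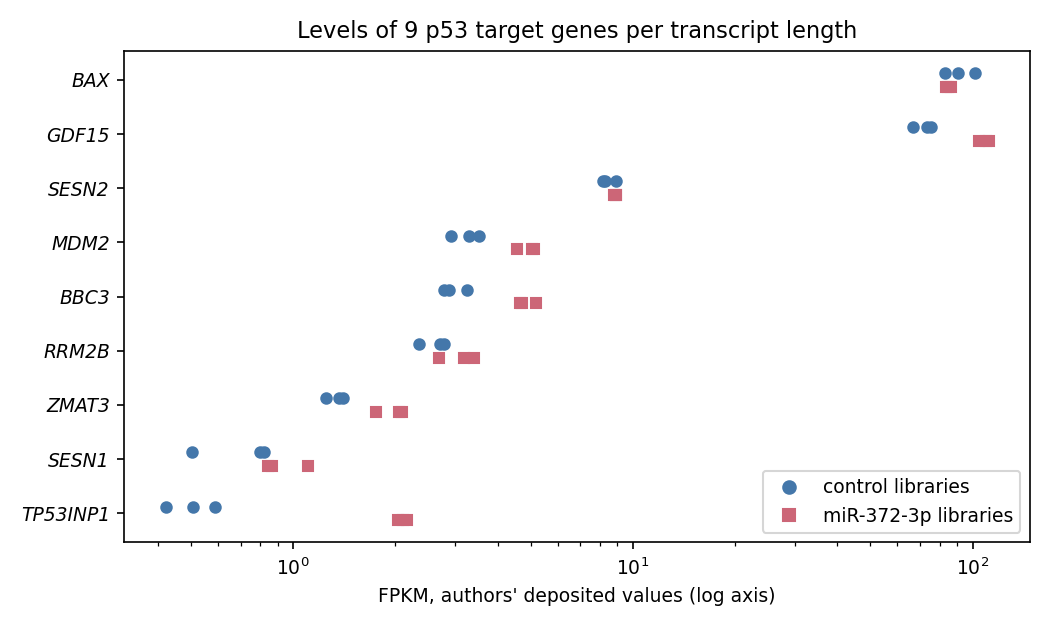
Levels of the 9 genes in the authors' FPKM (log axis), one point a library, blue for control and red for miR-372-3p, ordered by the control mean. In overexpressing cells GDF15 lies above BAX and TP53INP1 above SESN1, while SESN2 lies next below them in both groups, with means of 8.46 and 8.88 FPKM.

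Other genes of the p53 response went both ways. From a fixed list of 45 further p53 targets, 42 were measured: 15 rose, 17 fell and 10 did not pass, with a median log2 fold change of 0.04 against 0.0013 over all genes. Of the 42, 76.2% passed, against 54.5% of all genes; whether the list stands apart was not tested. Among the largest rises were E2F7 (0.94 ± 0.046), a repressor of cell cycle genes, GADD45A (0.90 ± 0.048), a growth arrest and DNA damage protein, and FBXW7 (0.83 ± 0.074), the substrate receptor of a ubiquitin ligase. AEN (0.63 ± 0.075), an apoptosis-enhancing nuclease, and TRIAP1 (0.53 ± 0.089), which protects mitochondria from apoptosis, were next. The largest falls were in the death receptor FAS (−2.37 ± 0.183), the membrane protein NINJ1 (−1.25 ± 0.069), the 14-3-3 protein SFN (−1.20 ± 0.065), the autophagy regulator DRAM1 (−1.11 ± 0.098) and the growth factor TGFA (−1.03 ± 0.054). FAS had few reads, 179 to 208 in the controls and 40 to 48 in overexpressing cells. TP53I3, a quinone oxidoreductase, fell by a small amount (−0.25 ± 0.087, edgeR adjusted p = 0.0335), and did not pass without control replicate 3 (adjusted p = 0.104) or overexpression replicate 1 (0.132) or 2 (0.0801).

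CDKN1A, which encodes the cell cycle inhibitor p21 and is the best known p53 target, fell. It was at 11.9, 11.1 and 10.2 CPM in the controls and 6.17, 4.45 and 6.35 in overexpressing cells. The groups were well separated, with a log2 fold change of −0.96 ± 0.142 (SE; edgeR adjusted p = 0.000313). GADD45A moved the other way, at 50.8, 48.7 and 52.1 CPM in the controls and 90.8, 94.1 and 97.1 in overexpressing cells (edgeR adjusted p = 3.83e-07). The 3′ UTR of CDKN1A held 2 of the 6-base matches GCACTT, and that of GADD45A held none. Among the other 42 targets, 10 held AGCACTT, of which 2 rose, 5 fell and 3 did not pass. E2F7 was among those that rose, and DRAM1 and TGFA among those that fell. Of the 32 without this match, 13 rose, 12 fell and 7 did not pass. In the set, 3 of the 4 genes with the match rose, as did 2 of the 5 without it. Whether the calls differ with and without the match was not tested. Over all genes 26.8% rose and 27.7% fell, and their calls were not counted by this match. The CDKN1A windows are shown because this gene is the best known target.
CDKN1A, chr6:36686256-36686285, plus strand: agtaaacagatgGCACTTtgaaggggcctc
CDKN1A, chr6:36686936-36686965, plus strand: ccccagttcattGCACTTtgattagcagcg

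**Figure D4:**
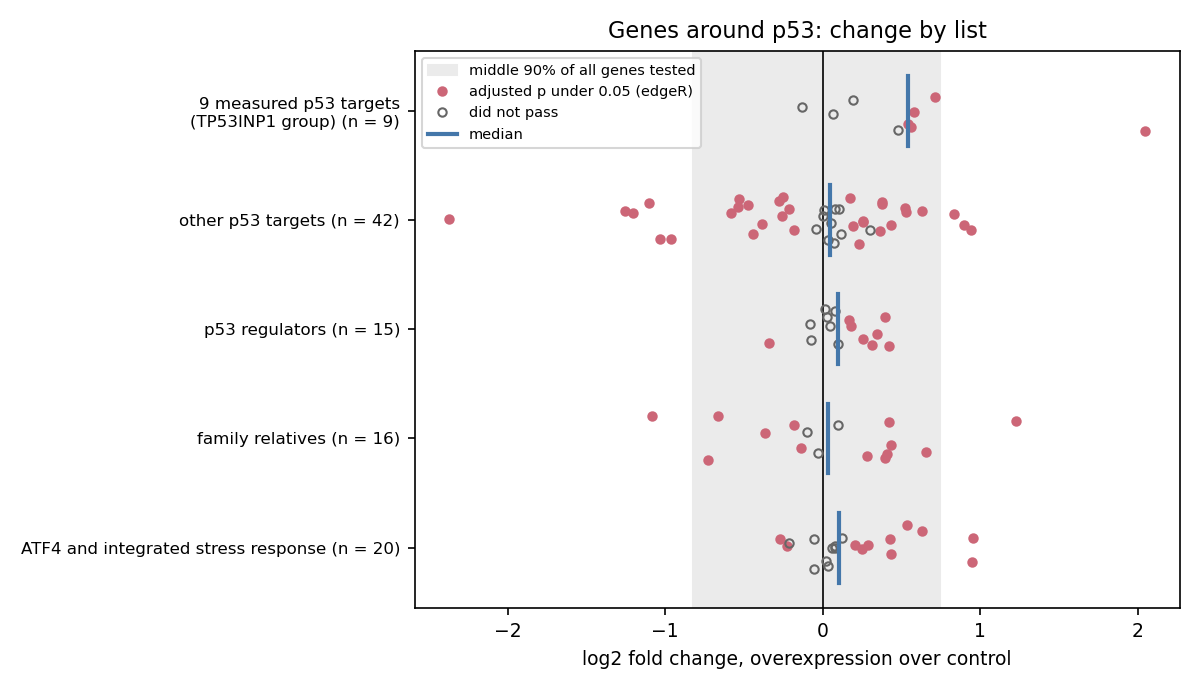
Log2 fold changes of overexpression over control for the 9 genes and for 4 lists of related genes (vertical scatter within a row has no meaning); filled points passed an adjusted p of 0.05 in edgeR, blue bars are medians, and grey marks the range from the 5th to the 95th percentile of all genes (−0.82 to 0.74). The 42 other p53 targets spread to both sides, from −2.37 to 0.94, about a median of 0.04.

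Of 17 regulators of p53, 15 were measured, of which 7 rose, 1 fell and 7 did not pass (median log2 fold change 0.095). The share that passed, 53.3%, was near the 54.5% of all genes. Besides MDM4, the rises included the deacetylase SIRT1 (0.40 ± 0.060), the checkpoint kinase CHEK2 (0.35 ± 0.079), the coactivator CREBBP (0.32 ± 0.067) and the phosphatase PPM1D (0.26 ± 0.061), itself a p53 target. CDKN2A, whose ARF product inhibits MDM2, fell (−0.34 ± 0.050), but its count covers the whole gene and does not show ARF alone. The damage kinases ATM (0.08 ± 0.049) and ATR (−0.07 ± 0.055) did not pass. Of 19 relatives of the 9 genes and of BTG2, 16 were measured, of which 7 rose, 6 fell and 3 did not pass (median 0.03). So 81.2% passed, against 54.5% of all genes; whether the list stands apart was not tested. TP53INP2, the paralog of TP53INP1, rose 1.33-fold (0.41 ± 0.092, edgeR adjusted p = 0.00394), and the BTG2 relatives TOB1 (−0.67 ± 0.071) and BTG3 (−0.36 ± 0.084) fell, while BTG1 (−0.10 ± 0.054) and TOB2 (0.10 ± 0.045) did not pass; BTG1 passed without overexpression replicate 3 (−0.15, adjusted p = 0.0466).

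Because GDF15 and SESN2 are also targets of ATF4, a list of ATF4 and integrated stress response genes was counted: of 20 measured, 9 rose, 2 fell and 9 did not pass (median 0.10), so that 55% passed, near the 54.5% of all genes. CHAC1 (0.95 ± 0.099), STC2 (0.95 ± 0.053) and ATF3 (0.63 ± 0.129) rose most, and DDIT3 rose as well (0.53 ± 0.153, edgeR adjusted p = 0.0144; 0.0548 without overexpression replicate 1). The ATF4 messenger was at 617 ± 4.76 and 644 ± 10.1 CPM (SD, n = 3) and did not pass (edgeR adjusted p = 0.13). The part of this response in the change of GDF15 was not tested.

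Total counts of named genes ran from 46851245 to 47890069 in the controls and from 51072581 to 60070397 in overexpressing cells. Control replicate 3 stood apart on the second principal component (10.5% of the variance), where it lay at −19.98 and the other 5 libraries between −3.31 and 13.0. In these bulk libraries, more cells expressing a gene and more messenger per cell cannot be told apart. Of the 12 hepatocyte markers listed, 4 were measured, and they went both ways: the fibrinogen genes FGA, FGB and FGG rose (log2 fold changes of 1.05, 0.80 and 0.79), and the protease inhibitor SERPINA1 fell from 8.98 ± 0.639 to 1.77 ± 0.372 CPM (SD, n = 3; −2.35 ± 0.169, edgeR adjusted p = 2.59e-06). Their sum was 41.7 to 45.4 CPM in the controls and 62.3 to 63.2 in overexpressing cells. Of the 4 epithelial markers listed, 2 were measured, the keratins KRT8 and KRT18. They summed to 2282 to 2382 CPM in the controls and 4675 to 4823 in overexpressing cells. Of the 5 stromal markers, 3 were measured. Their sum was 13.2 to 17.8 CPM in the controls and 82.4 to 89.6 CPM in overexpressing cells. Most of the latter was COL1A1, which went from a mean of 4.84 to 64.0 CPM. PDGFRB, the larger part in the controls, went from 9.08 to 20.2 CPM. COL1A2 did not pass (log2 fold change 0.29, edgeR adjusted p = 0.668). The 1 blood marker measured, CD68, a lysosomal protein, was at 118 to 139 CPM and 127 to 132 CPM, and no endothelial marker was measured. The part of these shifts in the results was not tested.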

How the data were processed

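RNA-seq libraries of JHH-4 cells (3 control, 3 overexpressing miR-372-3p) were grouped and numbered by their titles. The deposited table gives whole-number read counts that were not normalized, FPKM values scaled by the authors to length and depth, and the authors' p-value and log2 fold change, per the file headers. The submitters' processing notes name the build GRCh38 and the tools DESeq2 1.38.3, StringTie 2.2.1 and HISAT2 2.0.4, with no role given. For annotation and counting, no statement was found in the labels or headers. The 1610 rows without a gene ID (2.64 to 3.63% of counts per library) were left out of library sizes and tests.

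Counts of 12396 named genes entered a quasi-likelihood F-test with TMM factors (edgeR 4.0.16, R 4.3.3), adjusted by Benjamini-Hochberg over the 12396 and called at 0.05. The fit was also run on data simulated with the common dispersion for every gene. The real replicates differed unevenly, so that run does not test the calls reported here. Standard errors and intervals come from the fit, and CPM uses the TMM-scaled library sizes. The common biological coefficient of variation was 0.0796. Counts of any 2 replicates differed beyond sampling noise (chi-square divided by its degrees of freedom, 6.86 to 38.6). FPKM served only to order levels between genes. Positions and 3′ UTRs of at least 50 nt come from GENCODE 29. List symbols were matched through current gene names.

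Named genes were every member; any gene of the regulator and relative lists; of the other targets, the 5 highest and 5 lowest past the threshold with CDKN1A, GADD45A, FAS and TP53I3; of the stress list, the 3 largest changes with ATF4, DDIT3 and ATF3; and the 3 genes most like TP53INP1. The 4 hepatocyte markers, PDGFRB and COL1A2 were named after their values were seen. One gene of the regulator list is not reported here. Members and lists were chosen with earlier results of these data known. Alternatives were other size factors, total counts, DESeq2 1.42.0, a minimum of 2 CPM, the unnamed loci kept, a replicate block and leaving out each library.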

Additional observations from a re-analysis of the deposited data

How the results depend on the processing

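Under 12 alternatives, TP53INP1, MDM2, BBC3, GDF15 and ZMAT3 kept their direction and passed in every one, and all 9 genes kept their sign. The log2 fold change of TP53INP1 ran from 1.93 to 2.15, with adjusted p of at most 2.05e-05. The number of the 9 genes that passed ran from 5 to 7; 7 was the DESeq2 value, with BAX and SESN1 added. Leaving out 1 library at a time gave 5 to 6. The other p53 targets that passed ran from 29 to 32 of 42, and all genes that passed from 5761 to 7099. No scaling moved the median log2 fold change of all genes beyond 0.01 from 0. Among the other genes named, TP53I3 and DDIT3 missed the threshold under some alternatives, and 2 genes that had not passed changed sign when 1 library was left out. BID then ran from −0.05987 to 0.01268 and NDUFAF6 from −0.03162 to 0.06012; the cause was not tested.

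Deviations of same-numbered libraries did not go together (correlations −0.176, −0.0779 and 0.0961), and control replicate 1 correlated best with overexpression replicate 2 (0.268), so the numbers were not treated as pairs. With a replicate block, 6 of the 9 genes and 6809 of all genes passed, and 30 of the other p53 targets; BAX was the gene added (−0.13, adjusted p = 0.0268).

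Few reads lay behind SESN1 (94 to 205 a library, with an interval of 1.04 to 1.87-fold) and behind TP53INP1 in the controls (127 to 179). The part of depth in their spread was not tested.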
